A study of Mus musculus with 12 samples.

Results

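Astrocytes are the glial cells that take up transmitter, buffer ions and feed neurons in the brain, and 8 genes widely used to mark them were followed here through a neuronal culture: Slc1a3, Slc1a2, Glul, Gja1, Aqp4, Aldh1l1, Gfap and Sox9. They were taken by gene name from the deposited expression table, which holds 51912 genes, and each name was found in a single protein-coding row. The RNA came from primary neurons of the cortex, taken from embryos of the mouse strain C57BL/6J at E17.5, and the labels name no genetic change in any group. The cultures received erinacine S at 1 µg/mL, a compound from the mushroom Hericium erinaceus, or its solvent DMSO, and were kept for 16 h or 48 h. Each of the 4 combinations of agent and time had 3 independent repeats, which makes 12 libraries in all. All groups were plated for 3 h in medium with 5% serum and then moved to neurobasal medium with B27, a serum-free supplement that favours neurons over glia. Litters and the number of dishes per library are not stated, so p-values measure the spread between these libraries.

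In the cortex, astrocytes arise late, from radial glia that have first produced neurons, and the change is driven by signals through gp130, JAK and STAT3 and by transcription factors of the SOX and NFI families. Their marker genes divide by role. Slc1a3 (GLAST) and Slc1a2 (GLT-1) encode the transporters that clear synaptic glutamate, and Glul encodes glutamine synthetase, which turns that glutamate into glutamine for return to neurons. Gja1 encodes connexin 43, the main gap junction protein of astrocytes, and Aqp4 encodes the water channel of their end-feet on blood vessels. Aldh1l1 encodes an enzyme of folate metabolism, Gfap an intermediate filament protein that marks mature and reactive astrocytes, and Sox9 a transcription factor of the glial lineage. None is private to astrocytes: radial glia also carry Slc1a3, Glul and Sox9, oligodendrocyte precursors carry Glul and Sox9, and some neurons carry Slc1a2 transcripts.

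Levels are given in TPM, a relative abundance scaled for gene length that can be compared between genes. The depth of the libraries is unknown, since this unit does not retain it. In the labelled neurons, 12 neuronal marker genes summed to between 5079 and 6941 TPM per library, and the 8 astrocyte markers to between 151 and 265 TPM. In bulk RNA of this kind, fewer cells of a type and less RNA per cell cannot be told apart. A single library, erinacine S 48 h replicate 1, stands apart from the other 2 of its group in most glial genes, and the counts and fold changes of the markers in the 48 h erinacine S group are given with and without it. Differences are log2 fold changes of TPM + 1 with their standard error (SE), tested with limma over the 15623 genes with a mean of at least 1 TPM. A gene is called where the Benjamini-Hochberg adjusted p over all of these genes is under 0.05. Aqp4 fell short of that mean and was not among the genes tested, so 7 of the 8 markers were. Its fold changes come from a fit with no filter on low values.

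The start regions of the members whose RefSeq start and deposited 5′ end are at most 43 bases apart are shown first. The transcripts of these members were higher together at 48 h. RefSeq holds a start site (build GRCm38.p6) for 6 of the 8 members. For Slc1a3, Gja1 and Glul it lies outside the deposited gene and 43, 30 and 15 bases from its 5′ end. For Slc1a2, Aldh1l1 and Gfap it lies inside the deposited gene, 47779, 64366 and 3712 bases from that end. Each sequence below is the 250 bases before the RefSeq start of the former 3, written 5′ to 3′ on the strand of the gene. The Slc1a3 region is chr15:8710808-8711057 on the minus strand, the Gja1 region chr10:56377050-56377299 on the plus strand and the Glul region chr1:153899679-153899928 on the plus strand. Capitals mark matches to 4 motifs searched on both strands: SOX (ACAAAG), NFI (TTGGC, any 5 bases, then GCCA), STAT (TTCNNNGAA) and the TATA box (TATAAA).
Slc1a3: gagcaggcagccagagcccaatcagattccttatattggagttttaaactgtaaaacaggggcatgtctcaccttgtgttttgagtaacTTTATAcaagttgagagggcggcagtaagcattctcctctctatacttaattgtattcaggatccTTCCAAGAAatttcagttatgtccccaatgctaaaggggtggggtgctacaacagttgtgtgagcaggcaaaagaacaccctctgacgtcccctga
Gja1: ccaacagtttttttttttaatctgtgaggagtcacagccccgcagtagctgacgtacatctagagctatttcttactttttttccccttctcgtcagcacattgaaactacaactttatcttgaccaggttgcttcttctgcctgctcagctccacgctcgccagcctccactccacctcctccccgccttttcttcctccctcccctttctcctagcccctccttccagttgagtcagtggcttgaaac
Glul: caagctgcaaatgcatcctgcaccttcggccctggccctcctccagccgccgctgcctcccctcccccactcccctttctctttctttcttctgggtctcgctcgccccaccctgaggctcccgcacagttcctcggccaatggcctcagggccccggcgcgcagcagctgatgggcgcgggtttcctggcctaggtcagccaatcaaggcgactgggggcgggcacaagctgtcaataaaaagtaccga
The Slc1a3 region holds 2 matches that do not overlap each other, a TATA box on the opposite strand (TTTATA, 161 to 156 bases before the start) and a STAT motif (TTCCAAGAA, 96 to 88 bases before the start). Of 32851 mouse promoters of the same length in RefSeq, 12.4% held the TATA letters and 7.02% the STAT letters. SOX letters were in 16.5% and NFI letters in 0.253% of those promoters. None of the 4 motifs was matched in the Gja1 or Glul region. Base composition differed, with 44.8% G or C and 2 CpG for Slc1a3 and 64.8% and 15 CpG for Glul, and 6 CpG for Gja1. These matches describe letters and say nothing of a bound factor.

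The 8 markers spanned a wide range of levels, led by Glul. In DMSO at 48 h the mean level was 138 ± 4.20 TPM for Glul (SD, n = 3) and 59.5 ± 5.52 TPM for Slc1a3. Aldh1l1 stood at 17.3 ± 1.66 TPM and Sox9 at 15.6 ± 1.14 TPM, and the ranges of these neighbours overlapped. Slc1a2 followed at 11.6 ± 0.450 TPM and Gja1 at 7.43 ± 0.225 TPM. Gfap, at 2.63 ± 0.718 TPM, and Aqp4, at 1.60 ± 0.400 TPM, were the lowest, and every step of this order other than Aldh1l1 to Sox9 was free of overlap between neighbours. In DMSO at 16 h the order was the same except that Aldh1l1 stood below Sox9 and Slc1a2, with a range that overlapped that of Slc1a2. With erinacine S at 16 h the ranges of Slc1a2, Aldh1l1 and Gja1 ran into one another.

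**Figure D1:**
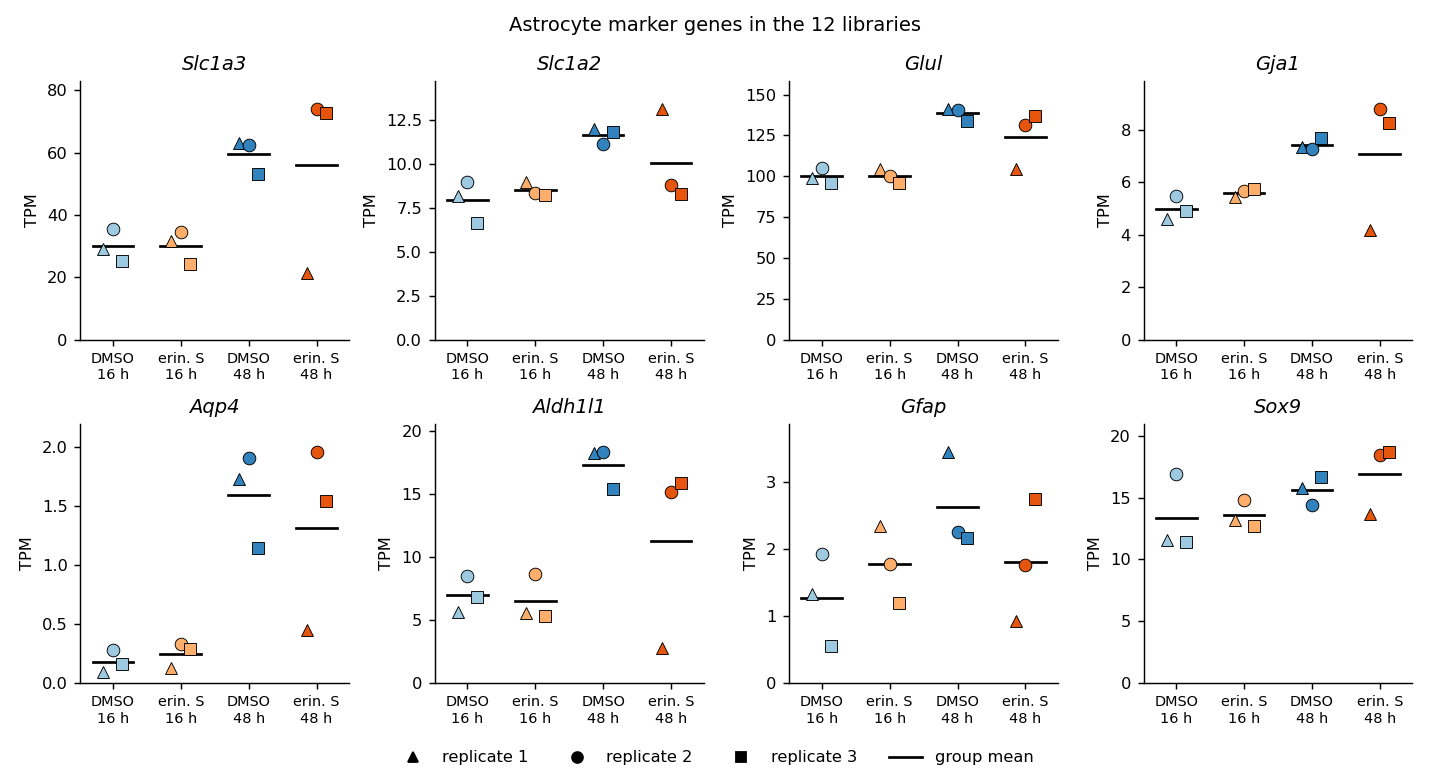
TPM (vertical axis, from 0, its own scale in each panel) of the 8 astrocyte markers in each of the 12 libraries, by group. Symbols give the replicate number and the bar the group mean; the triangle of erinacine S 48 h replicate 1 is the lowest point of the 48 h libraries in every panel except Slc1a2, where it is the highest.

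The question of the first comparison was how the markers differed between 16 h and 48 h in the solvent alone. Any difference in preparation or sequencing between the times was not tested and cannot be told apart from time in culture. All 8 stood higher on average at 48 h, and in 7 of them, all but Sox9, the 3 libraries of 48 h lay above the 3 of 16 h. Of the genes tested, which do not include Aqp4, 24.1% were higher without overlap in the same way. By the test, 2 of the 7 tested markers rose, Slc1a2 and Glul, where 16.1% of the genes tested rose and 16.6% fell. When erinacine S 48 h replicate 1, which is in neither group but adds to the shared estimate of spread, was left out of the fit, 6 of the 7 rose, against 19.2% of all genes. The median log2 fold change of the 7 was 0.51, beside -0.03 over all genes tested.

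The glutamate transporters were both higher at 48 h. Slc1a3 (ENSMUSG00000005360, chr15:8634124-8710764, minus strand) was at 29.0, 35.4 and 25.2 TPM in DMSO 16 h and at 63.0, 62.4 and 53.1 TPM in DMSO 48 h. The lowest 48 h library thus stood above the highest 16 h library, and the log2 fold change was 0.98 ± 0.36 (SE). The adjusted p of limma was 0.0567 in the fit of all libraries and 0.000361 without erinacine S 48 h replicate 1, with an SE of 0.14. Slc1a2 (ENSMUSG00000005089, chr2:102658659-102790784, plus strand) was at 8.13, 8.98 and 6.60 TPM in DMSO 16 h and at 11.9, 11.1 and 11.8 TPM in DMSO 48 h. It rose by 0.51 ± 0.15 on the log2 scale (limma adjusted p = 0.0226), without overlap of the groups. That call ended without DMSO 16 h replicate 3, DMSO 48 h replicate 1 or DMSO 48 h replicate 3.

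Glul, the enzyme downstream of both transporters, had the smallest adjusted p of the 7. Its level (ENSMUSG00000026473, chr1:153899944-153909723, plus strand) was 98.7, 105 and 95.7 TPM in DMSO 16 h and 141, 140.4 and 134 TPM in DMSO 48 h. The rise was 0.47 ± 0.09 on the log2 scale (limma adjusted p = 0.00231), and no library of 16 h reached those of 48 h.

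The channel genes of the astrocyte membrane were likewise higher at 48 h. Gja1 (ENSMUSG00000050953, chr10:56377330-56402513, plus strand) was at 4.60, 5.45 and 4.90 TPM in DMSO 16 h and at 7.35, 7.26 and 7.69 TPM in DMSO 48 h. The groups did not overlap, and the log2 fold change was 0.50 ± 0.19, with a limma adjusted p of 0.0684 that became 0.00122 without erinacine S 48 h replicate 1. Aqp4 (ENSMUSG00000024411) was barely detected at 16 h, at 0.0877, 0.277 and 0.160 TPM in DMSO, and stood at 1.73, 1.91 and 1.15 TPM at 48 h. In the fit with no filter on low values, in which 15.2% of 32347 genes were called, its log2 fold change was 1.13 ± 0.24 (limma adjusted p = 0.011). With a pseudocount of 0.1 in place of 1 the fold change of Aqp4 was 2.65 and with a pseudocount of 5 it was 0.35.

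Among the remaining markers, Aldh1l1 had the largest fold change of the tested members and Sox9 the smallest. Aldh1l1 (ENSMUSG00000030088, chr6:90486427-90600203, plus strand) was at 5.66, 8.496 and 6.84 TPM in DMSO 16 h and at 18.3, 18.3 and 15.4 TPM in DMSO 48 h. Its log2 fold change was 1.21 ± 0.44, with a limma adjusted p of 0.0546 that became 0.000309 without erinacine S 48 h replicate 1. Gfap (ENSMUSG00000020932, chr11:102887336-102900912, minus strand) was at 1.33, 1.93 and 0.546 TPM in DMSO 16 h and at 3.46, 2.26 and 2.17 TPM in DMSO 48 h. The libraries of 48 h were again all higher, by a small margin, and the log2 fold change was 0.71 ± 0.28 with adjusted p values of 0.0735 and, without that library, 0.0433 in limma. Sox9 (ENSMUSG00000000567, chr11:112782224-112787760, plus strand) was at 11.6, 16.9 and 11.4 TPM in DMSO 16 h and at 15.7, 14.4 and 16.7 TPM in DMSO 48 h. These groups overlapped, and the log2 fold change of 0.23 ± 0.15 did not pass (limma adjusted p = 0.259, and 0.182 without that library).

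With erinacine S the change from 16 h to 48 h depended on the library that stands apart. With all libraries, 1 of the 7 tested markers rose, Glul, where 15.1% of the genes tested rose. Without erinacine S 48 h replicate 1, 4 of the 7 rose, Slc1a3, Aldh1l1, Gja1 and Glul, against 12.1% of all genes. Only Glul and Aqp4 had all 3 libraries of 48 h above the 3 of 16 h, a separation found upward in 21.2% of the genes tested. The genes tested do not include Aqp4. Without replicate 1, all markers but Slc1a2 and Gfap (6 of 8) had the remaining 2 libraries of 48 h above the 3 of 16 h, as did 25.1% of the genes tested. The median log2 fold change of the 7 was 0.29 with that library and 0.43 without it.

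Slc1a3 was at 31.5, 34.6 and 24.2 TPM in erinacine S 16 h, and at 21.2, 74.1 and 72.8 TPM in replicates 1, 2 and 3 of erinacine S 48 h. Replicate 1 was thus below every 16 h library while the others were at least as high as any DMSO 48 h library. The log2 fold change was 0.70 ± 0.36 (limma adjusted p = 0.167) with replicate 1 and 1.28 ± 0.16 (adjusted p = 0.000298) without it. Aldh1l1 showed the same split, with 5.51, 8.61 and 5.34 TPM at 16 h and 2.78, 15.2 and 15.9 TPM at 48 h. Its log2 fold change was 0.46 (limma adjusted p = 0.459) with replicate 1 and 1.17 ± 0.19 (adjusted p = 0.0015) without it.

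Gja1 was at 5.42, 5.65 and 5.74 TPM in erinacine S 16 h and at 4.17, 8.80 and 8.27 TPM in erinacine S 48 h. Its log2 fold change moved from 0.24 (limma adjusted p = 0.383) to 0.53 ± 0.10 (adjusted p = 0.00299) when replicate 1 was left out. Glul was at 105, 100.0 and 96.0 TPM in erinacine S 16 h and at 105, 131 and 137 TPM in erinacine S 48 h, with replicate 1 of 48 h just above the highest 16 h library of that treatment. The rise of Glul was 0.30 ± 0.09 (limma adjusted p = 0.0244) with that replicate and 0.42 ± 0.06 (adjusted p = 0.00123) without it. The former call ended without any 1 of erinacine S 16 h replicates 2 and 3 and erinacine S 48 h replicates 2 and 3.

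Aqp4 was at 0.124, 0.328 and 0.288 TPM in erinacine S 16 h and at 0.447, 1.96 and 1.54 TPM in erinacine S 48 h. With no filter, in which 14.1% of genes were called, its log2 fold change was 0.83 (limma adjusted p = 0.0436) and, without replicate 1, 1.14 (adjusted p = 0.00251). Slc1a2 differed from its fellow transporter in replicate 1. It was at 8.93, 8.32 and 8.24 TPM in erinacine S 16 h and at 13.1, 8.76 and 8.28 TPM in erinacine S 48 h, so that replicate 1 was the highest of all 12 libraries. Its log2 fold change was 0.19 (limma adjusted p = 0.357) with replicate 1 and 0.00 (adjusted p = 0.983) without it.

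Gfap was at 2.35, 1.78 and 1.20 TPM in erinacine S 16 h and at 0.923, 1.76 and 2.75 TPM in erinacine S 48 h, with log2 fold changes of -0.01 and, without replicate 1, 0.23, neither called (limma adjusted p = 0.976 and 0.577). Sox9 was at 13.2, 14.8 and 12.7 TPM and then at 13.7, 18.4 and 18.7 TPM, with log2 fold changes of 0.29 and, without replicate 1, 0.43, neither called (limma adjusted p = 0.172 and 0.0542).

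**Figure D2:**
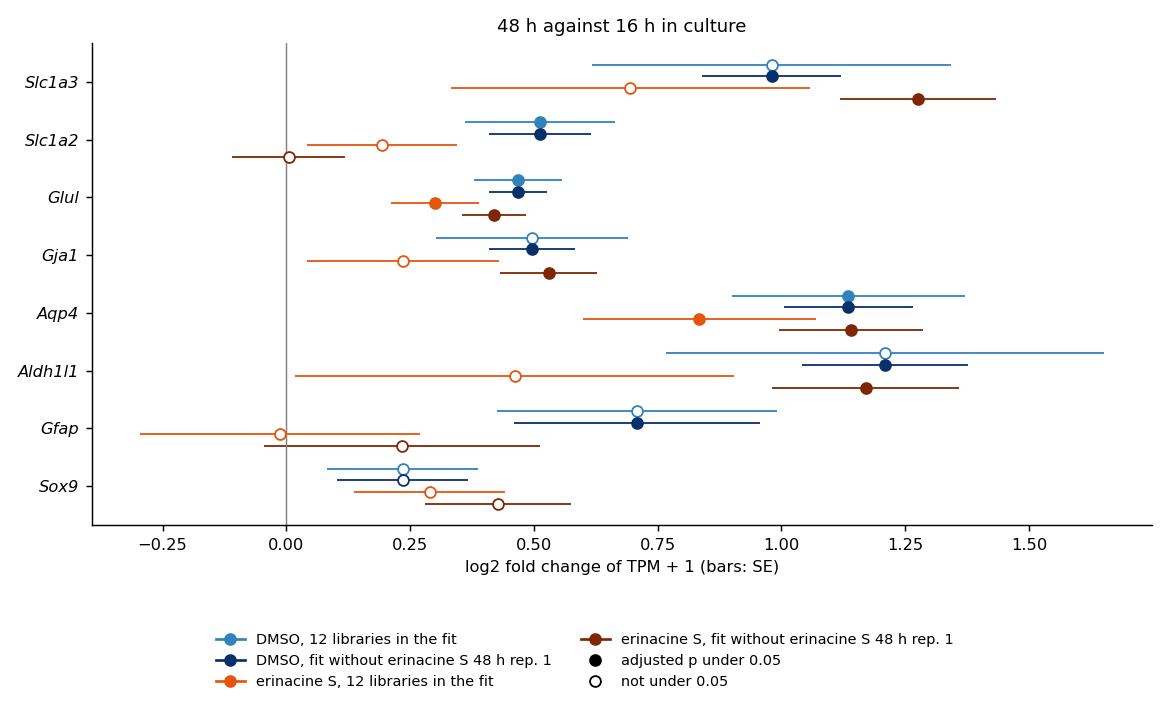
Log2 fold change of TPM + 1 from 16 h to 48 h (horizontal axis, bars 1 SE) for each marker in DMSO and in erinacine S, fitted with all 12 libraries and without erinacine S 48 h replicate 1; Aqp4 is from the fits with no filter on low values. Filled points are called; leaving out that library does not move the DMSO points, shortens their bars, and moves Slc1a3 in erinacine S from 0.70 to 1.28.

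The second question was what erinacine S did to these genes at each time. At 16 h none of the 7 tested markers was called, nor was any of the 15623 genes (0% called by limma, none at an adjusted p under 0.05, with 201 genes and 0 markers at an unadjusted p under 0.05). In no marker did the 3 treated libraries lie apart from the 3 DMSO libraries, which was so for 4.19% of the genes tested. Those tested did not include Aqp4. Log2 fold changes were 0.01 ± 0.36 for Slc1a3, 0.10 ± 0.15 for Slc1a2 and 0.00 ± 0.09 for Glul. The interval of Glul was the narrowest, from -0.19 to 0.20 at 95% confidence, and that of Aldh1l1, at -0.11, ran from -1.07 to 0.86. Gfap had the largest value of the 7, 0.32 ± 0.28, and its groups overlapped.

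At 48 h no marker was called either, where 0.134% of the genes tested were called (21 genes), and without erinacine S 48 h replicate 1 the background was 0.73% (114 genes). With all libraries no marker had groups free of overlap, a separation seen in 19.3% of the genes tested, which do not include Aqp4. Without replicate 1, the 2 remaining treated libraries lay above the 3 of DMSO in Slc1a3, Gja1 and Sox9 and below them in Slc1a2, 4 of the 8 markers, where 36.9% of the genes tested separated in either direction. By limma, 0 of the 7 were under an unadjusted p of 0.05 with all libraries and 1 was without replicate 1. The median of the 7 was -0.22 with all libraries and -0.05 without replicate 1, beside 0.01 and 0.00 over all genes.

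For Slc1a3 the difference turned sign with that library. DMSO 48 h spanned 53.1 to 63.0 TPM, and the treated replicates were at 21.2, 74.1 and 72.8 TPM. The log2 fold change was -0.28 ± 0.36, with a 95% interval from -1.07 to 0.51 (limma adjusted p = 0.861). Without replicate 1 it was 0.30 ± 0.16, from -0.04 to 0.65 (limma adjusted p = 0.638). Gja1 turned in the same way, from -0.12 to 0.18, with an interval from -0.04 to 0.39 without replicate 1 (limma adjusted p = 0.669).

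Slc1a2 had the lowest unadjusted p of the markers once replicate 1 was left out. The 2 other treated libraries were at 8.76 and 8.28 TPM, below the DMSO range of 11.1 to 11.9 TPM and close to the level of 16 h, while replicate 1 was above that range. The log2 fold change was -0.22 ± 0.15 with all libraries (limma adjusted p = 0.708). Without replicate 1 it was -0.41 ± 0.11, with a 95% interval from -0.66 to -0.15, an unadjusted p of 0.00457 and an adjusted p of 0.222 in limma, so it was not called in either fit.

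Aldh1l1 had the largest difference with all libraries, -0.86 ± 0.44 (limma adjusted p = 0.614), and -0.15 ± 0.19 without replicate 1 (adjusted p = 0.91). Glul was at -0.16 ± 0.09 with all libraries and -0.05 ± 0.06 without replicate 1, the latter with an interval from -0.19 to 0.10. Gfap was at -0.40 ± 0.28 and -0.16 ± 0.28, and Sox9 at 0.10 ± 0.15 and 0.24 ± 0.15. Aqp4, with no filter, was at -0.22 and, without replicate 1, 0.09. None of these differences was larger than the spread of the libraries allowed the test to call.

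The difference between both erinacine S effects, 48 h less 16 h, was tested as an interaction and is also the difference between both time courses. No marker and no gene was called (0% by limma), with 432 genes and 0 markers at an unadjusted p under 0.05 with all libraries. Without replicate 1, 641 genes and 1 marker, Slc1a2, were under that level. Its difference was -0.32 ± 0.21 with all libraries and -0.51 ± 0.15 without replicate 1 (limma adjusted p = 0.824). The rise of Slc1a2 in DMSO and its lack in erinacine S were thus not shown to differ after adjustment.

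**Figure D3:**
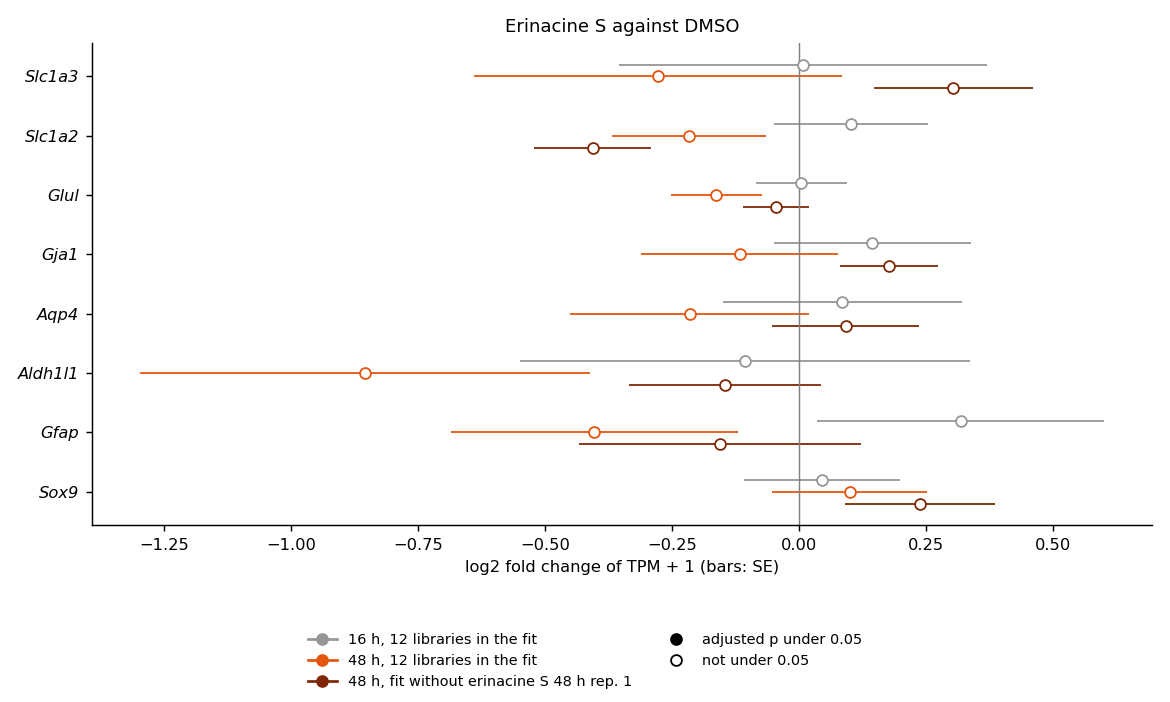
Log2 fold change of TPM + 1 of erinacine S against DMSO (horizontal axis, bars 1 SE) for each marker at 16 h, at 48 h, and at 48 h without erinacine S 48 h replicate 1; Aqp4 is from the fits with no filter on low values. All points are open, since none was called, and Slc1a3 and Gja1 cross 0 when that library is left out.

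Erinacine S 48 h replicate 1 was the lowest of the 6 libraries of 48 h in 7 of the 8 markers and the highest in Slc1a2. Over the genes tested, which do not include Aqp4, that library was the lowest in 23.4% and the highest in 35.9%. The summed level of the 8 markers was 161 TPM in replicate 1 and 242 to 265 TPM in the other 5 libraries of 48 h. Glul alone gave 104.7 TPM of that sum in replicate 1 and 131.5 to 141.4 TPM in the other 5. At 16 h the sum was 151 to 183 TPM in DMSO and 154 to 174 TPM in erinacine S.

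The summed markers of other cell types also stood apart in erinacine S 48 h replicate 1. The 12 radial glia and intermediate progenitor genes (among them Fabp7, Nes and Pax6) were all at their lowest of 48 h in replicate 1, and their sum was 183 TPM, where the other 5 had 630 to 752 TPM. All 10 genes of dividing cells were at their lowest too, with 155 TPM against 307 to 333 TPM. All 10 microglial genes were as well, with 3.20 TPM against 17.1 to 42.1 TPM, and C1qa and P2ry12 were listed at 0 in it. Replicates 2 and 3 of erinacine S 48 h, at 17.1 and 25.6 TPM, were also below the 30.1 to 42.1 TPM of DMSO 48 h. The complement gene C1qc was called lower with erinacine S at 48 h (-1.48 ± 0.24, limma adjusted p = 0.0413). Without replicate 1, C1qa, C1qb and C1qc, 3 of the 7 tested microglial genes, were called lower (limma adjusted p = 0.0114, 0.0413 and 0.0351). The differences were -1.25 for C1qa and -1.26 for C1qc. Of all genes tested, 0.134% were called for erinacine S at 48 h with all libraries and 0.73% without replicate 1. Of the 10 oligodendrocyte genes 7 were at their lowest, with 77.1 TPM against 187 to 250.2 TPM. Mog was listed at 0 in replicate 1. DMSO 48 h replicates 2 and 3 and erinacine S 48 h replicate 2 also had 1 gene of this list at 0. Of the 10 vascular and meningeal genes 6 were at their lowest, with low sums throughout, 1.09 TPM against 2.25 to 3.94 TPM. Of these genes 1 was listed at 0 in replicate 1 (Cdh5), 2 in DMSO 48 h replicate 2 and 3 in erinacine S 48 h replicate 3. Dcn, the gene of this list that was tested, differed with erinacine S at 48 h by -0.14, and by -0.17 without replicate 1. Of the 4 ependymal genes 2 were at their lowest, with 4.82 TPM against 8.52 to 10.9 TPM. Tmem212, an ependymal gene, was listed at 0 in all libraries. Of the 12 neuronal genes 8 were at their highest of 48 h in replicate 1 and 3 at their lowest, and their sum was 6941 TPM against 6555 to 6897 TPM. The share of mitochondrially encoded transcripts was 5.12% in it and 5.94% to 7.70% in the other 11 libraries. The part of these other cells and of this share in the marker results was not tested.

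**Figure D4:**
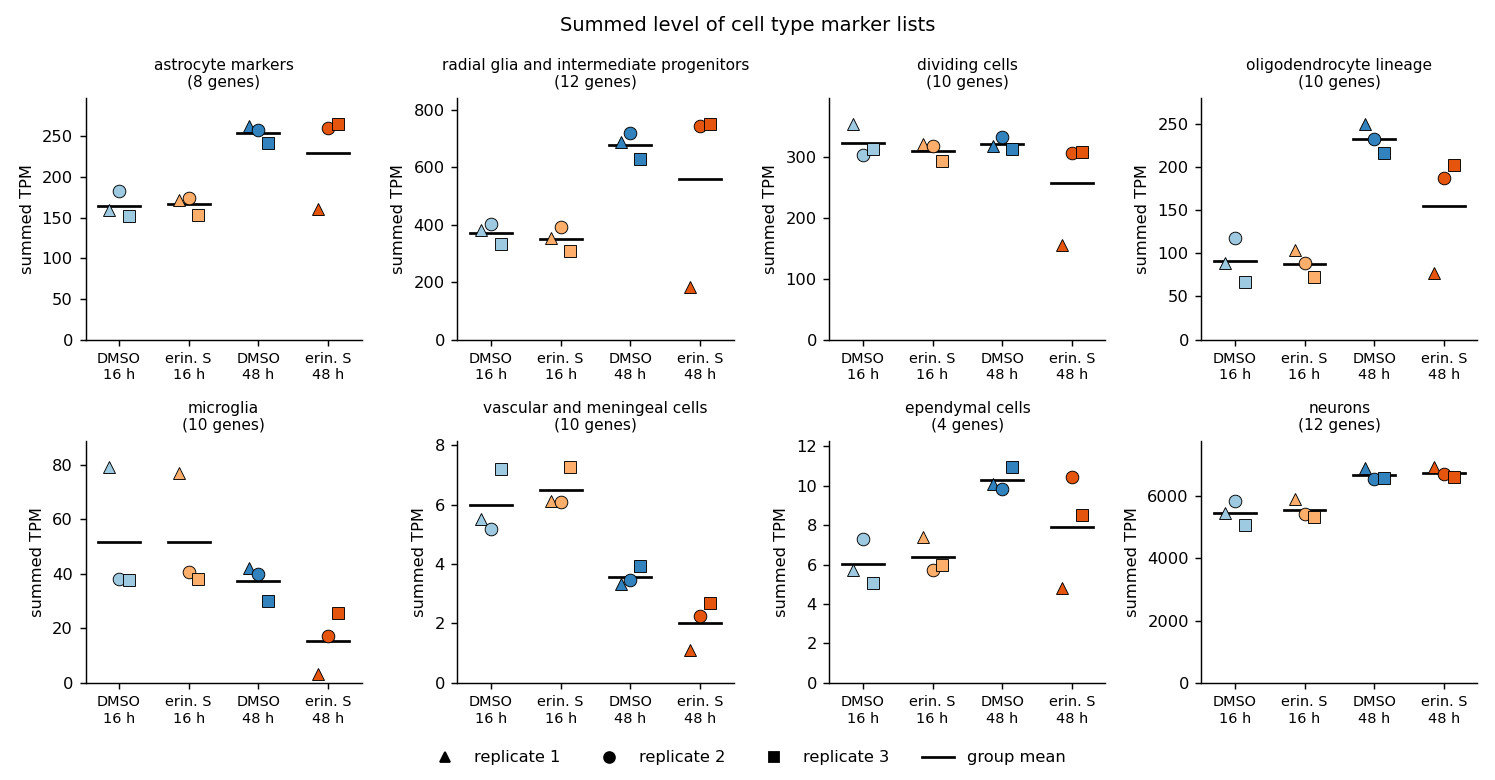
Summed TPM (vertical axis, from 0, its own scale in each panel) of the 8 astrocyte markers and of marker lists of 7 other cell classes in the 12 libraries, by group; symbols give the replicate number and bars the group mean. In erinacine S 48 h, replicate 1 lies below the other 48 h libraries in every panel except neurons, as at 161 against 242 to 265 TPM for the astrocyte markers.

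Several of these lists also had other sums at 48 h than at 16 h, with the oligodendrocyte sum at 66.9 to 118 TPM in DMSO 16 h and 216 to 250.2 TPM in DMSO 48 h, and the radial glia sum at 332 to 403 TPM and 630 to 719 TPM. Neuronal genes summed to 5079 to 5843 TPM and 6555 to 6897 TPM. The sum of dividing cell genes overlapped between the times in DMSO, with 304 to 355 TPM and 313 to 333 TPM, as did the microglial sum, with 37.6 to 79.1 TPM and 30.1 to 42.1 TPM. Vascular and meningeal genes were lower at 48 h, at 5.19 to 7.21 TPM and then 3.34 to 3.94 TPM, and ependymal genes higher, at 5.04 to 7.29 TPM and then 9.86 to 10.9 TPM. Their part in the rise of the astrocyte markers with time was not tested.

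Other astrocyte genes rose with the markers. Of 24 listed, 18 were tested, and 10 rose and 0 fell from 16 h to 48 h in DMSO, with a median of 0.63 over the 18, where 16.1% of all genes tested rose and 16.6% fell. Without erinacine S 48 h replicate 1 in the fit 16 rose, against 19.2% of all genes. Acsbg1, a fatty acid activating enzyme, was at 3.01, 4.02 and 3.57 TPM in DMSO 16 h and at 16.5, 16.1 and 12.3 TPM in DMSO 48 h. It rose by 1.81 ± 0.53 (limma adjusted p = 0.0223), and in erinacine S 48 h stood at 1.75, 16.2 and 16.1 TPM, with replicate 1 below every library of 16 h. Gpc5, a cell surface proteoglycan, rose by 1.06 and Ppp1r3c, which promotes glycogen storage, by 1.00. Apoe, the lipid carrier, rose by 0.67, Sparcl1 (hevin), a secreted protein that promotes synapses, by 0.59, and Clu (clusterin) by 0.54. In erinacine S 7 rose with all libraries, against 15.1% of all genes, and 15 without replicate 1, against 12.1%. None of the 18 was called for erinacine S at 16 h or at 48 h, and their median at 48 h was -0.20 with all libraries and 0.09 without replicate 1.

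In the reactive astrocyte list, which holds genes induced by injury and inflammation, no gene rose and 3 fell. Of 16 listed, 8 were tested, and 3 fell and 5 were not called in DMSO, where 16.6% of all genes fell. The median of the 8 for erinacine S at 48 h was -0.26 with all libraries and 0.01 without replicate 1, with none called. Cxcl10, an interferon-induced chemokine, was at 17.2, 13.1 and 19.0 TPM in DMSO 16 h and at 0.188, 0.389 and 0.140 TPM in DMSO 48 h, a change of -3.80 ± 0.17 (limma adjusted p = 2.54e-07). Gbp2, an interferon-induced GTPase, changed by -2.61 and Timp1, an inhibitor of metalloproteinases, by -1.09. In erinacine S the same 3 genes fell, with Emp1, Cd44 and Vim, 6 in all where 15.5% of the genes tested fell, and 5 fell without replicate 1, where 13.4% did. Vim, the intermediate filament partner of Gfap, was at 159, 176 and 201 TPM in DMSO 48 h and at 80.8, 156 and 147 TPM in erinacine S 48 h, where replicate 1 was the lowest of all 12 libraries. Cxcl10 and Gbp2 are made by many cell types under interferon, and their cell of origin cannot be told from these libraries.

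Genes that handle glutamate and glutamine in neurons and glia included both risers and fallers. Of 15 listed, 14 were tested, and 6 rose and 2 fell in DMSO, where 16.1% of all genes rose and 16.6% fell. Slc38a3 (SNAT3), through which astrocytes release glutamine, rose the most, by 1.42, from 2.22 to 4.46 TPM at 16 h to 9.61 to 10.3 TPM at 48 h. Slc1a1 (EAAC1), the glutamate transporter of neurons, rose by 0.71, and Got1 and Got2, the aspartate aminotransferases, by 0.52 and 0.47. Pcx (pyruvate carboxylase) rose by 0.48 and Gls2, a glutaminase, by 0.41. Slc17a6 (VGLUT2), a vesicular glutamate transporter of neurons, changed by -0.42 and Slc1a5, a neutral amino acid transporter, by -0.45. In erinacine S 4 rose and 0 fell, in both fits: Got2, Slc1a1, Got1 and Slc38a3. Of all genes 15.1% rose with all libraries and 12.1% without replicate 1.

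Some partners of connexin 43 and aquaporin-4 at gap junctions and end-feet also rose in DMSO. Of 15 listed, 10 were tested, and 6 rose and 0 fell, where 16.1% of all genes rose. Kcnj10 (Kir4.1), the potassium channel beside aquaporin-4, rose by 1.43, from 2.23 to 3.30 TPM at 16 h to 8.35 to 10.1 TPM at 48 h, and Hepacam (GlialCAM), an adhesion protein, by 1.20. Dag1 (dystroglycan), which ties the end-foot to the basal lamina, rose by 0.55 and Panx1, a pannexin channel, by 0.34. In erinacine S, 2 rose and 1 fell with all libraries, where 15.1% of all genes rose and 15.5% fell. Without replicate 1, 5 rose and 1 fell, against 12.1% and 13.4%.

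The gene that fell was Dtna (alpha-dystrobrevin), a member of the dystrophin complex that anchors aquaporin-4. It was the sole gene of the 5 partner lists that was called for erinacine S, at 48 h. Of all genes tested, 0.134% were called there with all libraries and 0.73% without replicate 1. The cell of origin of this gene cannot be told from these libraries. Its level was 34.6, 34.0 and 33.2 TPM in DMSO 48 h and 22.2, 20.9 and 21.3 TPM in erinacine S 48 h, groups that did not overlap and in which replicate 1 did not stand apart. The difference was -0.64 ± 0.11 (limma adjusted p = 0.0458), and -0.66 without replicate 1 (adjusted p = 0.0331). At 16 h Dtna was at 33.0, 33.7 and 30.3 TPM in DMSO and at 26.0, 35.1 and 36.0 TPM in erinacine S, which overlapped, and its interaction of -0.63 was not called (limma adjusted p = 1).

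Genes of the gliogenic programme included receptors and transcription factors that rose in DMSO. Of 20 listed, all 20 were tested, and 7 rose and 1 fell, where 16.1% of all genes rose and 16.6% fell. The receptor genes Lifr and Il6st (gp130), which pass on the signal that starts astrocyte formation, rose by 0.69 and 0.43, the kinase gene Jak1 by 0.33 and Stat3, its target, by 0.39. Sox8, a relative of Sox9, rose by 1.02, Hes1, an effector of Notch, by 0.64 and Zbtb20, a regulator of astrocyte formation, by 0.59. Nfia, whose product switches on astrocyte genes, was at 29.2, 28.5 and 22.7 TPM in DMSO 16 h and at 18.9, 18.2 and 19.7 TPM in DMSO 48 h, a change of -0.47 ± 0.12 (limma adjusted p = 0.0103). In erinacine S 4 rose (Lifr, Il6st, Jak1 and Zbtb20) and 2 fell (Nfia and Nfib) with all libraries, against 15.1% and 15.5% of all genes. Without replicate 1, 6 rose and 1 fell, against 12.1% and 13.4%. In none of the 5 lists was a gene called at 16 h for erinacine S or in the interaction.

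**Figure D5:**
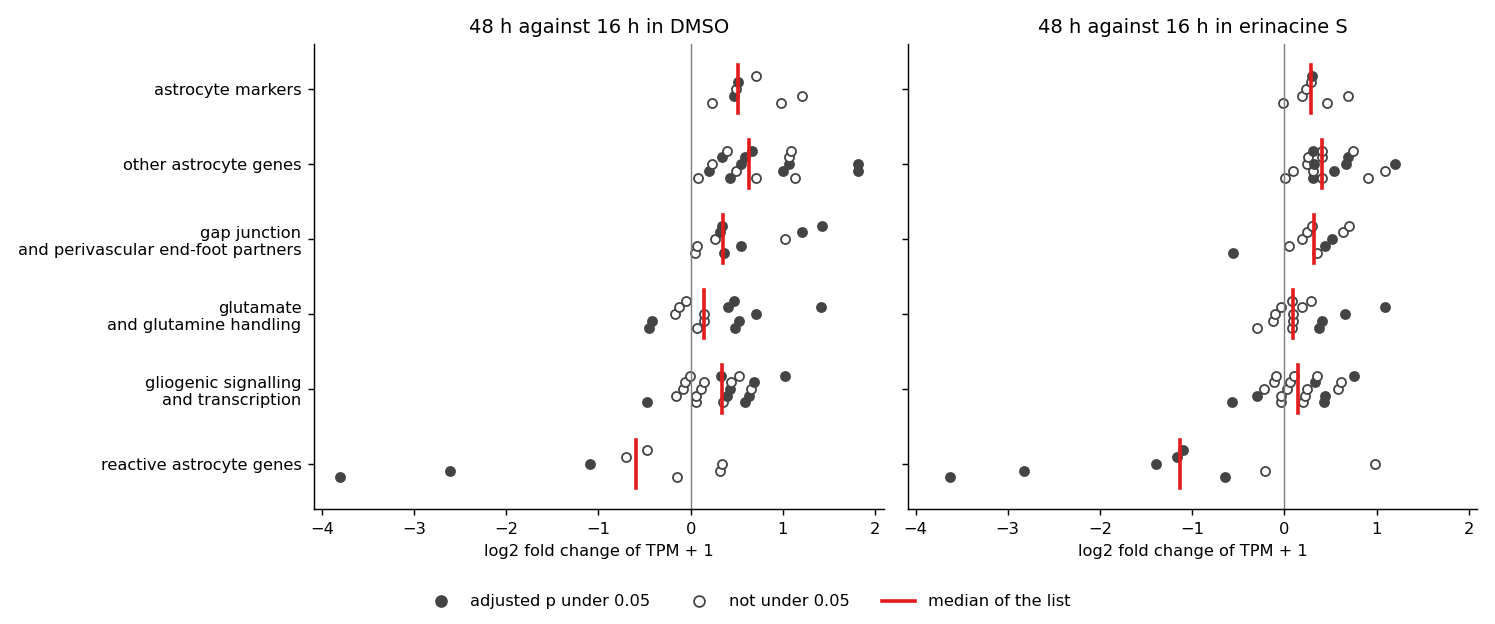
Log2 fold change of TPM + 1 from 16 h to 48 h (horizontal axis) of each tested gene of the astrocyte markers and 5 partner lists, in DMSO and in erinacine S with all libraries; filled points are called and the red bar is the list's median. The markers sit at a median of 0.51 in DMSO and the other astrocyte genes at 0.63, while the reactive genes have a median of -0.59, with Cxcl10 farthest left.

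The markers followed each other across libraries to different degrees. Pearson's r of a marker with the mean of the other 7 (standardised log2 values) was between 0.75 and 0.96 over the 12 libraries for all but Slc1a2, for which it was 0.35. Without erinacine S 48 h replicate 1 that of Slc1a2 was 0.68. These values describe libraries that fall into 2 times, which differ in most of the markers, and carry no p.

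Of 10649 genes with a mean of at least 5 TPM, those most like the mean of the 8 markers over the 12 libraries included Slc38a3 (r = 0.98), Tril, Sox8, Fam181b, Metrn, Rgcc, Sox10, Kcnj10 and Uck2 (r = 0.95). Over the 11 libraries without replicate 1 they included Sfrp1 (r = 0.99), Sh3d19, Trim2, Eml2, Sgsm1, Fam124a, Tril, Slc38a3 and Brinp2. Tril and Slc38a3 were thus among the most alike with and without that library. Sfrp1, a secreted inhibitor of Wnt signals, differed from both in replicate 1, where it was at 72.0 TPM beside 68.0 to 73.8 TPM in DMSO 48 h. Tril, a Toll-like receptor partner, was at 3.81 TPM in that library and at 10.3 to 12.9 TPM in DMSO 48 h.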

How the data were processed

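Total RNA of 12 cultures was sequenced from libraries of a strand-specific kit, per the labels' protocols. The submitters' processing notes name bcl2fastq 2.20, Trimmomatic 0.36, FastQC, HISAT2, SAMtools, StringTie 2.1.3 and the build GRCm38.p5, without order or settings. For the strand setting and the annotation release nothing is stated in the sources used here. A single table was deposited by the authors, with TPM per gene, in which 1e-04 stands for 0 (read here as 0), with gene positions as printed. TPM keep no depth, so the spread between libraries is the only precision given.

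Columns were mapped by title. Tests used limma (version 3.58.1, R 4.3.3) on log2(TPM + 1) (1 mean per group, 4 groups sharing a spread estimate, eBayes with trend, two-sided, Benjamini-Hochberg over 15623 genes, threshold 0.05). The log2(TPM + 1) scale understates the change of low genes. The test was checked on simulated data of independent libraries with the same spread in every group. That setting held no library set apart and no pairing, so it does not cover those features of the data. The members, lists and rules were chosen with earlier results of these data known. Named are all members, the called genes and up to 3 genes with the smallest p of each list, and the 10 genes most like the members, of which 1 is not reported here. Lists are described by counts and medians, with no test of their own.

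Replicate pairs of a group correlated across genes at 0.98 to 1.00 and none was a copy. Replicate numbers come from the titles. At 16 h same-numbered libraries deviated together (r = 0.48, 0.185 and 0.51), so they were treated as paired in an alternative with a block within each time, which changed no call of a marker. At 48 h they did not (r = -0.022, 0.107 and -0.192), nor did same-numbered DMSO libraries across the times (r = -0.037, -0.182 and -0.01). Other alternatives were pseudocounts of 0.1 and 5, no filter or a mean of at least 5 TPM, median-ratio scaling, TPM without mitochondrially encoded genes, only the libraries compared, and leaving out each library. Chosen after seeing the data were the Aqp4 fit, the overlaps and the list counts without erinacine S 48 h replicate 1. Promoters are from RefSeq. Sequence of Aqp4 and Sox9 was not used here.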

Additional observations from a re-analysis of the deposited data

How the results depend on the processing

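But for the cases given here, the directions of the marker medians and of the single markers held under the alternatives tried. In the fit of only the libraries compared, Slc1a3, Aldh1l1 and Gja1 joined Slc1a2 and Glul as markers called for the time course in DMSO. Glul was not called for that in erinacine S (limma adjusted p = 0.0792), which left no marker called there. For erinacine S at 48 h, 12 genes were called. The share of all genes called over time in that fit is not given here. With no filter 2 genes were called at 16 h, and Slc1a2 in DMSO (0.51, adjusted p = 0.0529) and Glul in erinacine S (0.30, adjusted p = 0.0539) lost their calls. The interaction had 1 called gene with a pseudocount of 0.1. Signs turned for Gfap over time in erinacine S with a pseudocount of 5 (0.0023), and at 16 h for Slc1a3 (-6.1e-05) and Glul (-0.0039) with median-ratio scaling, all near 0.

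With the replicate number as a block over the 12 libraries 13 genes were called for erinacine S at 48 h. In that fit Aldh1l1 joined Slc1a2 and Glul as called for time in DMSO, with no share of all genes given here. Blocked within each time, 1 gene was called in the interaction. The block changed no other call of a marker. Without mitochondrially encoded genes the marker sums were 185, 188 and 166 TPM in erinacine S 16 h and 282, 278 and 257 TPM in DMSO 48 h. Such transcripts made up 5.12% to 7.70% of each library, so the sums of all groups are higher in that setting. Those of the other groups are not given here.

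Leaving out each library in turn gave 9 to 114 called genes for erinacine S at 48 h, 3401 to 5978 for time in DMSO and 3110 to 5051 for time in erinacine S, with 1 to 6 and 0 to 4 markers called for time. The median interaction ranged from -0.43 to -0.039, and the median at 16 h from -0.026 to 0.19. Ranges through 0 were seen at 16 h in Slc1a3 (-0.10 to 0.15), Slc1a2 (-0.0082 to 0.19), Sox9 (-0.048 to 0.22), Glul (-0.027 to 0.042) and Aldh1l1 (-0.30 to 0.024), and at 48 h in Slc1a3 (-0.57 to 0.30), Gja1 (-0.28 to 0.18) and Aqp4 (-0.42 to 0.091). They were also seen in the interaction of Slc1a3 (-0.58 to 0.30), Gja1 (-0.43 to 0.033), Sox9 (-0.12 to 0.19) and Aqp4 (-0.51 to 0.0067), and in Gfap over time in erinacine S (-0.25 to 0.23). The depth is unknown, and 3 libraries a group limit the precision.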

Other observations

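The transcript ratio of the 2 glutamate transporters, Slc1a3 over Slc1a2 in TPM, was 3.56, 3.95 and 3.82 in DMSO 16 h and 3.52, 4.16 and 2.93 in erinacine S 16 h. In DMSO 48 h it was 5.28, 5.61 and 4.50, above all 6 libraries of 16 h. In erinacine S 48 h it was 1.62 in replicate 1 and 8.46 and 8.79 in replicates 2 and 3, so the lowest and the 2 highest ratios of the 12 libraries were in 1 group. The difference between treatments was not tested.

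Some loci of the markers hold other annotated genes. Glul overlaps Teddm2 on the opposite strand (mean 2.15 TPM) and Mir8114 on its own strand (2.89 TPM), and has a pseudogene elsewhere, Glns-ps1 (3.16 TPM); how reads were shared between them is not stated. Slc1a3 overlaps Gm37310 (0.465 TPM). The other overlapping genes of the markers had means of at most 0.0237 TPM.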
